A study of Mus musculus with 8 samples.

Results

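The transcripts described here are those of 6 genes of the major histocompatibility complex (MHC) class II pathway, H2-Aa, H2-Ab1, H2-Eb1, H2-DMa, Cd74 and Ciita, in retinas of rd10 mice, a strain carrying a Pde6b mutation under which rods degenerate and cones follow. Members were taken as the rows of the deposited count and FPKM tables (fragments per kilobase of gene, scaled to library size) whose gene name equals a listed symbol. All 6 were found, each on a single row, among 54532 genes. The libraries labelled sIVs were 4 in number and carry the numbers 2 to 5; the title of the series spells the name out as small intracellular vesicles. The libraries labelled PBS, read here as phosphate-buffered saline and described in the labels as the control group, were also 4 and carry the numbers 1 to 4. Both groups share the rd10 background and the tissue. The labels used here do not give the source, dose or route of the vesicles, the age or sex of the mice, or whether a library came from 1 animal, so p-values measure only the spread between libraries.

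MHC class II molecules are heterodimers of an alpha and a beta chain that present peptides from the endosomal pathway to CD4+ T cells. In the endoplasmic reticulum the chains bind the invariant chain, Cd74, which occupies the groove and directs the complex to endosomes. There cathepsins degrade Cd74, and the H2-DM heterodimer exchanges the remaining fragment for peptide. Transcription of the whole set depends on the coactivator Ciita, which binds no DNA itself but docks on the RFX and NF-Y factors and on CREB at the conserved X and Y boxes of class II promoters. Interferon-gamma induces Ciita in part through Irf1. In the retina, class II is mostly a property of microglia, macrophages and other myeloid cells, and is low in the resting tissue.

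Start-site windows of class II genes are shown to display the X and Y box letters, the elements on which Ciita acts, where they were found. Windows run from 250 bases before to 50 bases after a gene's start, are written 5′ to 3′ in the direction of the gene, and come from RefSeq on GRCm38.p6. Of the 6 members, H2-Aa, H2-Eb1 and H2-DMa had entries, and the 2 windows of H2-DMa held neither of the motifs searched. Those of H2-Aa (chr17:34287774-34288073, minus strand), H2-Eb1 (chr17:34305617-34305916, plus strand) and, for comparison, the related H2-Eb2 (chr17:34325425-34325724, plus strand) follow, with every GCAACT, letters found in the X box, and CTGATTGG, the letters of a Y box, in capitals. The first GCAACT of H2-Eb2, 140 bases from its CTGATTGG, lies outside the spacing searched.
H2-Aa: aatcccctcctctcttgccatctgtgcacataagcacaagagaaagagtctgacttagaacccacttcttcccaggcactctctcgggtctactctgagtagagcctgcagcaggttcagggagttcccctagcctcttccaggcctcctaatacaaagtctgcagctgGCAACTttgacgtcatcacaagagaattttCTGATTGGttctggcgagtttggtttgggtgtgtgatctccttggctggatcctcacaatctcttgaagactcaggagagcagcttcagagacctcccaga
H2-Eb1: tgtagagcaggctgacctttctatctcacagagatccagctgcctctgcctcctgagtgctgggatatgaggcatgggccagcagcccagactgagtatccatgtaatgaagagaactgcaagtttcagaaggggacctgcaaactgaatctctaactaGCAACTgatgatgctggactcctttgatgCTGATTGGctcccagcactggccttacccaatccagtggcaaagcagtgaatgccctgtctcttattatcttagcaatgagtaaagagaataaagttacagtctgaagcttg
H2-Eb2: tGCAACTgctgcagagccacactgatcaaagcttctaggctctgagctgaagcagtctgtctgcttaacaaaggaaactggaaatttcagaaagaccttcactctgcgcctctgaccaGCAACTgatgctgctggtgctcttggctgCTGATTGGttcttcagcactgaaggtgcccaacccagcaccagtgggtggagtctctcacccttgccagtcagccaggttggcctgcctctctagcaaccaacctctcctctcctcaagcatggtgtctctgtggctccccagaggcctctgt
Searched on both strands, GCAACT was present in 10.9% and CTGATTGG in 4.1% of the 32851 windows. GCAACT followed on the same strand by CTGATTGG within 60 bases was present in 15 windows, or 0.0457%. H2-Aa, with 24 bases between the motifs, and H2-Eb1, with 23, were among these 15, as was H2-Eb2, with 23. Windows were found for 38 of the 45 genes of the pathway lists described here, and of these only H2-Eb2 held the pair. Those of H2-DMb1, H2-DMb2 and H2-Ob held neither motif, and that of H2-Oa held CTGATTGG without GCAACT. Only these exact letters were searched, so a window without them, H2-DMa included, is not shown to lack an X or Y box. H2-Eb2 had 0 counts in all 8 libraries, while H2-Aa and H2-Eb1 were counted in every one.

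Libraries held 15039385 to 16989737 counts in sIVs and 14640235 to 15948291 in PBS. Class II made up little of them, with 148 to 439 counts over the 6 genes together in sIVs and 152 to 203 in PBS. The rod markers fitted the retina label. Libraries sIVs 3 and 4 stood apart: Gnat1, the alpha subunit of rod transducin, stood at 1283 and 1244 CPM (counts per 1000000 of the scaled library size) in them, against 6323 and 4514 CPM in sIVs 2 and 5 and 5632 to 7360 CPM in PBS. Their part in each class II result is given by values without them. With the edgeR quasi-likelihood test over 17725 genes, 0 genes were higher and 0 lower at an adjusted p under 0.05, which is 0% of the genes tested. At an unadjusted p under 0.05, 1704 (9.61%) were higher and 998 (5.63%) lower, and DESeq2 called 465 higher and 106 lower.

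Class II transcripts were higher in sIVs libraries 3 and 4 than in any PBS library for 5 of the 6 genes, and within or below the PBS range in sIVs libraries 2 and 5 for all 6. No member passed the edgeR test between the groups, while a voom fit with sample quality weights called H2-Ab1, H2-DMa and Cd74 (adjusted p = 0.00753, 0.0217 and 0.015). That fit called many genes, 2484 higher and 2489 lower of the 17725 tested. The median log2 ratio of group means, sIVs over PBS, was 0.84 over the 6 members and -0.01 over all genes tested. H2-Aa, H2-Ab1, H2-Eb1, H2-DMa and Cd74 were higher in both sIVs 3 and sIVs 4 than in each of the other 6 libraries. This pattern, described after the values were seen, held for 19.9% of all genes tested. In 0 of the 6 members did every sIVs library lie above every PBS library, against 4.42% of all genes tested, and in 0 did every one lie below, against 3.36%. In bulk retina, fewer cells of a type and less RNA per cell cannot be told apart.

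**Figure D1:**
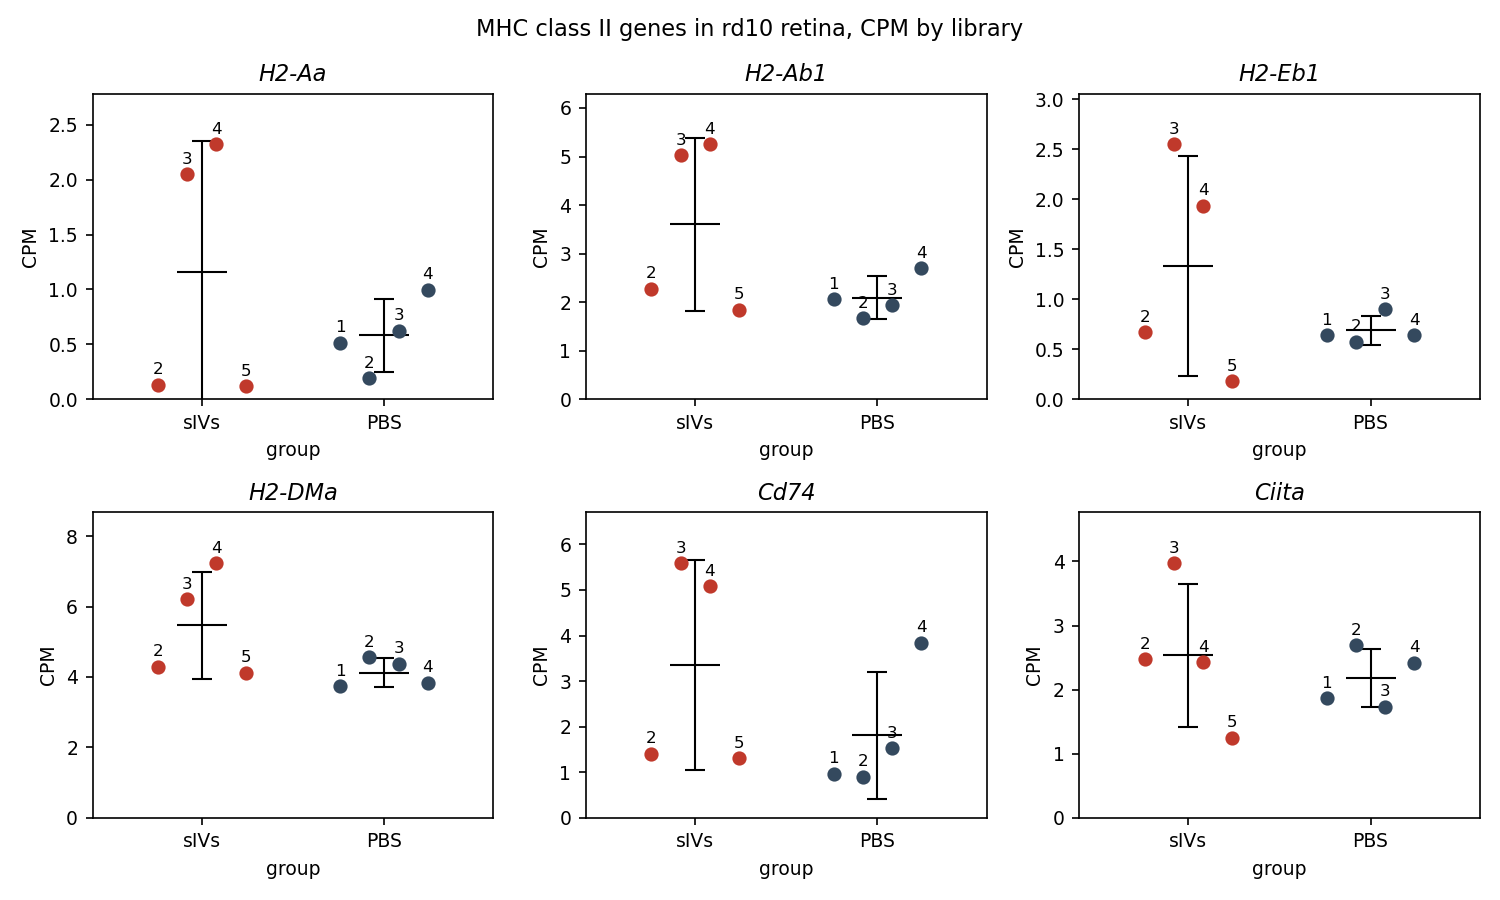
Scaled counts (CPM, vertical axis, linear from 0) of the 6 class II genes in sIVs libraries (red, left) and PBS libraries (dark, right); numbers are library numbers, and bars are the mean ± SD of 4 libraries, drawn down to 0 at most. In each panel but Ciita, sIVs 3 and 4 are the highest points; for Ciita only sIVs 3 stands above all PBS libraries, at 3.98 CPM.

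H2-Ab1 (ENSMUSG00000073421, chromosome 17, 34263209 to 34269418, mm10, plus strand) encodes the beta chain of the I-A molecule. It stood at 2.28, 5.03, 5.25 and 1.85 CPM in sIVs libraries 2 to 5, against 2.06, 1.67, 1.94 and 2.70 CPM in PBS libraries 1 to 4. Library sizes were scaled by TMM (trimmed mean of M values), and these CPM values rest on 31 to 95 counts in sIVs and 26 to 38 in PBS. Libraries sIVs 3 and 4 lay above the PBS range, and sIVs 2 and 5 lay within it. The groups averaged 3.6 ± 1.79 CPM in sIVs and 2.09 ± 0.439 CPM in PBS (SD, n = 4 each), or 1.73-fold; on the log2 scale the change was 0.79 ± 0.36 (SE, edgeR adjusted p = 0.337). Without sIVs 3 and 4 it was -0.023 on the log2 scale (edgeR adjusted p = 0.985).

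H2-Aa (ENSMUSG00000036594, chromosome 17, 34282744 to 34287827, minus strand) encodes the alpha chain that pairs with H2-Ab1. It was the sparsest member, with 2, 33, 42 and 2 counts in sIVs libraries 2 to 5, against 8, 3, 9 and 14 counts in PBS libraries 1 to 4. As CPM these were 0.134, 2.05, 2.32 and 0.119 in sIVs, against 0.515, 0.192, 0.625 and 0.996 in PBS. Libraries sIVs 3 and 4 were above every PBS library, and sIVs 2 and 5 were below every one. With 2 counts, the exact 95% Poisson interval of 0.242 to 7.23 counts overlaps those of PBS libraries 1 to 3, and it covers counting error only. H2-Aa did not pass the filter on low counts, so it has no value from the fit. Its group means were 1.16 ± 1.19 CPM in sIVs and 0.582 ± 0.331 CPM in PBS (SD, n = 4 each; exact two-sided permutation p = 0.429 over 70 relabellings, of which the smallest possible is 0.0286). Fitted with no filter, its log2 fold change was 1.01 ± 0.73 (SE, edgeR adjusted p = 0.645 over 33760 genes). Without sIVs 3 and 4 the log2 ratio of means was -2.20, which rests on 2 counts in each sIVs library left.

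H2-Eb1 (ENSMUSG00000060586, chromosome 17, 34305877 to 34316199, plus strand) encodes the beta chain of I-E. It had 10, 41, 35 and 3 counts in sIVs libraries 2 to 5, against 10, 9, 13 and 9 counts in PBS libraries 1 to 4. As CPM these were 0.67, 2.55, 1.93 and 0.179 in sIVs, against 0.644, 0.577, 0.902 and 0.64 in PBS. The PBS libraries were close to each other, sIVs 2 lay among them, sIVs 3 and 4 above all of them and sIVs 5 below all of them. With 3 counts in sIVs 5, the exact 95% Poisson interval of 0.619 to 8.77 counts overlaps those of all PBS libraries. The groups averaged 1.33 ± 1.1 CPM in sIVs and 0.691 ± 0.144 CPM in PBS (SD, n = 4 each), and the log2 fold change was 0.95 ± 0.62 (SE, edgeR adjusted p = 0.498). Without sIVs 3 and 4 it was -0.73 (edgeR adjusted p = 0.604), and without sIVs 3 alone 0.45. The alpha chain of I-E is a pseudogene in the mouse reference, H2-Ea-ps, and had 1 and 3 counts in sIVs 2 and 3 and 0 in the other 6 libraries.

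Cd74 (ENSMUSG00000024610, chromosome 18, 60803848 to 60812646, plus strand), the invariant chain, stood at 1.41, 5.59, 5.08 and 1.31 CPM in sIVs libraries 2 to 5, against 0.966, 0.898, 1.53 and 3.84 CPM in PBS libraries 1 to 4. Counts were 21 to 92 in sIVs and 14 to 54 in PBS. Library PBS 4 was 2.12 times the PBS mean and lay between sIVs 3 and 4 and the other libraries. The same library was the highest PBS library for H2-Aa and H2-Ab1, but not for H2-Eb1, H2-DMa or Ciita. The group means were 3.35 ± 2.31 CPM in sIVs and 1.81 ± 1.38 CPM in PBS (SD, n = 4 each), and the log2 fold change was 0.91 ± 0.60 (SE, edgeR adjusted p = 0.501). It was 1.57 without PBS 4, 0.55 without sIVs 3 and -0.40 without sIVs 3 and 4 (edgeR adjusted p = 0.419, 0.801 and 0.804).

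H2-DMa (ENSMUSG00000037649, chromosome 17, 34135182 to 34139101, plus strand) encodes the alpha chain of the peptide exchange factor H2-DM. It stood at 4.29, 6.21, 7.24 and 4.12 CPM in sIVs libraries 2 to 5, against 3.73, 4.55, 4.37 and 3.84 CPM in PBS libraries 1 to 4. Again sIVs 3 and 4 lay above the PBS range and sIVs 2 and 5 inside it. The groups averaged 5.46 ± 1.52 CPM in sIVs and 4.13 ± 0.399 CPM in PBS (SD, n = 4 each), and the log2 fold change was 0.41 ± 0.21 (SE, edgeR adjusted p = 0.396). The level in sIVs 3 and 4 was 1.51 and 1.75 times the PBS mean for H2-DMa. For the chain genes and Cd74 it ran from 2.40 times (H2-Ab1 in sIVs 3) to 3.99 times (H2-Aa in sIVs 4). Without sIVs 3 and 4 the log2 fold change of H2-DMa was 0.023 (edgeR adjusted p = 0.976).

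Ciita (ENSMUSG00000022504, chromosome 16, 10480059 to 10528418, plus strand), the coactivator of the other members, did not share their pattern in full. It stood at 2.48, 3.98, 2.43 and 1.25 CPM in sIVs libraries 2 to 5, against 1.87, 2.69, 1.74 and 2.42 CPM in PBS libraries 1 to 4. Only sIVs 3 lay above every PBS library. Library sIVs 4, in which H2-Aa, H2-Ab1 and H2-DMa were highest, held Ciita inside the PBS range, and sIVs 5 lay below it. The means were 2.53 ± 1.12 CPM in sIVs and 2.18 ± 0.453 CPM in PBS (SD, n = 4 each), and the log2 fold change was 0.21 ± 0.33 (SE, edgeR adjusted p = 0.786). It was -0.088 without sIVs 3 alone and -0.24 without sIVs 3 and 4. The deposited gene spans overlap by 25888 bases with Dexi on the opposite strand, at 20.8 to 28.4 CPM over the 8 libraries. The strand setting of the counting is not given in the sources used here, so Ciita reads cannot be told apart from Dexi reads where exons overlap.

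**Figure D2:**
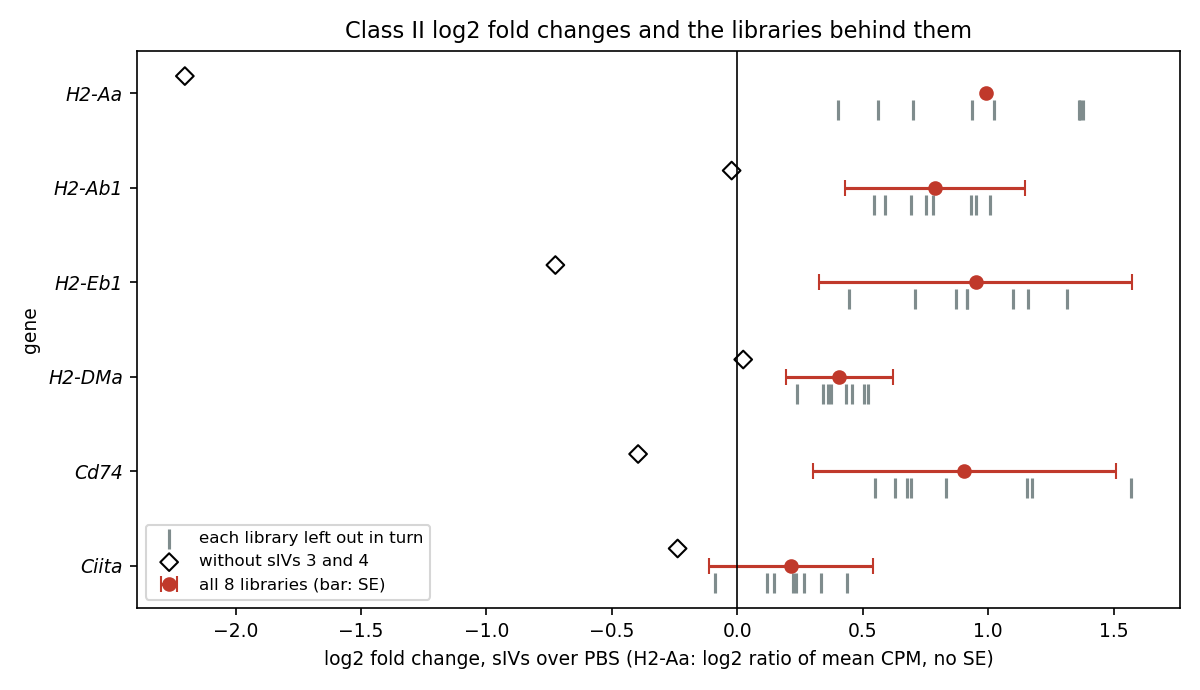
Log2 fold change, sIVs over PBS (horizontal axis), of each class II gene with all 8 libraries (red point, bar ± SE), with each library left out in turn (grey ticks) and without sIVs 3 and 4 (open diamonds); for H2-Aa the value is the log2 ratio of mean CPM, with no SE. The diamonds lie at 0.023 for H2-DMa and below 0 for the other 5 genes, down to -2.20 for H2-Aa.

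For single members, exact two-sided permutation tests of CPM over the same 70 relabellings gave p = 0.229 for H2-Ab1 and Cd74, 0.343 for H2-Eb1, 0.171 for H2-DMa and 0.6 for Ciita (n = 4 each). These are not adjusted. The SD over sIVs libraries was above that over PBS libraries for all 6 genes. The share of all tested genes with this order was not counted, so it is not shown to be particular to class II. Outside class II, Gnat1 also had it, at 2510 CPM in sIVs and 761 CPM in PBS. For H2-Eb1 it was 1.1 CPM in sIVs and 0.144 CPM in PBS, and for H2-Ab1 1.79 CPM in sIVs and 0.439 CPM in PBS.

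Levels of different genes are compared per length, in FPKM. H2-DMa had the highest mean of the 6, at 3.32 ± 0.917 FPKM in sIVs and 2.51 ± 0.246 FPKM in PBS (SD, n = 4 each). Cd74 followed at 2.37 ± 1.63 FPKM in sIVs and 1.28 ± 0.971 FPKM in PBS, and H2-Ab1 at 2.19 ± 1.09 FPKM in sIVs and 1.27 ± 0.263 FPKM in PBS. H2-DMa exceeded Cd74 in 6 of 8 libraries, the exceptions being sIVs 3 and PBS 4. Cd74 and H2-Ab1 did not differ beyond their spread, and Cd74 exceeded H2-Ab1 in 3 of 8 libraries. H2-Ab1 exceeded H2-Eb1, and H2-Eb1 exceeded H2-Aa, in 8 of 8. H2-Aa exceeded Ciita, the lowest in PBS at 0.228 ± 0.047 FPKM, in 5 of 8, so these neighbours in the order overlapped.

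The chains of the I-A dimer were not counted in equal amounts. H2-Aa stood at 0.0514 to 0.386 times the FPKM of its partner H2-Ab1 in sIVs libraries and at 0.101 to 0.322 times in PBS libraries. H2-Eb1 stood at 0.134 to 0.7 times H2-Ab1 in sIVs and at 0.327 to 0.642 times in PBS, and Cd74 at 0.717 to 1.29 times in sIVs and 0.544 to 1.65 times in PBS. Each of these ratios overlapped between the groups. H2-Ab1 stood at 5.35 to 12.6 times Ciita in sIVs libraries and at 3.61 to 6.52 times in PBS libraries.

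The rest of the class II pathway was followed over a list of 12 genes for peptide loading and accessory chains, 7 of which passed the filter on low counts. None passed the adjusted edgeR test in either direction, and the median log2 fold change was 0.27, against -0.01 over all genes. Of the 7 tested, 5 were higher in both sIVs 3 and 4 than in the other 6 libraries, against 19.9% of all genes tested. H2-DMb1, the beta partner of H2-DMa, had 14, 42, 51 and 16 counts in sIVs libraries 2 to 5, against 18, 20, 16 and 12 counts in PBS libraries 1 to 4, with sIVs 3 and 4 highest. H2-Oa and H2-Ob, chains of an inhibitor of H2-DM found mainly in B cells, had at most 11 counts in sIVs and 14 in PBS libraries. Ifi30, a thiol reductase of endosomes that unfolds antigens, stood at 9.17, 21, 21.9 and 11.2 CPM in sIVs libraries 2 to 5, against 7.70 to 10.3 CPM in PBS. Its log2 fold change was 0.87 ± 0.28, and that of Ctsl, a cathepsin, 0.43 ± 0.16 (SE, edgeR adjusted p = 0.214 and 0.261). Both passed in edgeR without sIVs 2 (adjusted p = 0.0285 and 0.029), where 870 genes passed as higher and 461 as lower. Without sIVs 3 and 4 their log2 fold changes were 0.23 and 0.11 (edgeR adjusted p = 0.587 and 0.653). Ctss, the cathepsin best known for cutting Cd74 in myeloid cells, averaged 63.0 ± 23.0 CPM in sIVs and 52.2 ± 8.69 CPM in PBS (SD, n = 4 each). It stood at 73.9 and 89.1 CPM in sIVs 3 and 4, against 42.5 to 61.9 CPM in PBS, and at 37.3 CPM in sIVs 5. Marchf1, a ligase that marks class II for turnover, averaged 80.8 ± 33.9 CPM in sIVs and 99.9 ± 15.3 CPM in PBS. It was below every PBS library in sIVs 3 and 4, at 51.6 and 52.9 CPM, against 81.2 to 113 CPM in PBS. Neither gene passed in edgeR (adjusted p = 0.623 for Ctss and 0.606 for Marchf1).

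Of the 7 factors that sit on class II promoters, 2 were higher in both sIVs 3 and 4 than in the other 6 libraries, a share near the 19.9% of all genes. Over Rfx5, Rfxap, Rfxank, Nfya, Nfyb, Nfyc and Creb1, all tested, 0 passed in edgeR in either direction and the median log2 fold change was -0.03. Rfx5, the DNA-binding subunit of RFX, stood at 29, 29.9, 31.5 and 31.2 CPM in sIVs libraries 2 to 5, against 32.8, 38.4, 39.1 and 33 CPM in PBS libraries 1 to 4. All sIVs libraries were below all PBS libraries, a separation found in 3.36% of genes, and the log2 difference was -0.24 ± 0.08 (SE, edgeR adjusted p = 0.251). Nfyc, a subunit of NF-Y, had -0.16 ± 0.09 (SE, edgeR adjusted p = 0.434).

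Genes of the interferon-gamma route to Ciita had a median log2 fold change of 0.36 over 9 tested members, and 0 passed in either direction in edgeR. Every sIVs library was above every PBS library for 3 of them, Irf1 and Irf2 included, against 4.42% of all genes. Irf1, which binds the interferon-responsive promoter of Ciita, stood at 17.6, 39, 50.4 and 21.4 CPM in sIVs libraries 2 to 5, against 14.6, 13.9, 10.5 and 11.5 CPM in PBS libraries 1 to 4. Its log2 fold change was 1.35 ± 0.31 (SE, edgeR adjusted p = 0.161), and 0.62 without sIVs 3 and 4 (edgeR adjusted p = 0.189). It passed in DESeq2 (adjusted p = 0.00178) and in edgeR without sIVs 2 (adjusted p = 0.0128). The cytokine itself, Ifng, had 1 count, in PBS 3, and 0 in the other 7 libraries, where a count of 0 allows up to 0.166 to 0.213 CPM (3 counts, counting error only). Irf1 was highest in sIVs 4, where Ciita had 44 counts (2.43 CPM), inside its PBS range of 1.74 to 2.69 CPM. In sIVs 3, where Irf1 stood at 39 CPM, Ciita had 64 counts (3.98 CPM), above every PBS library. The relation of Irf1 to Ciita was not tested.

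**Figure D3:**
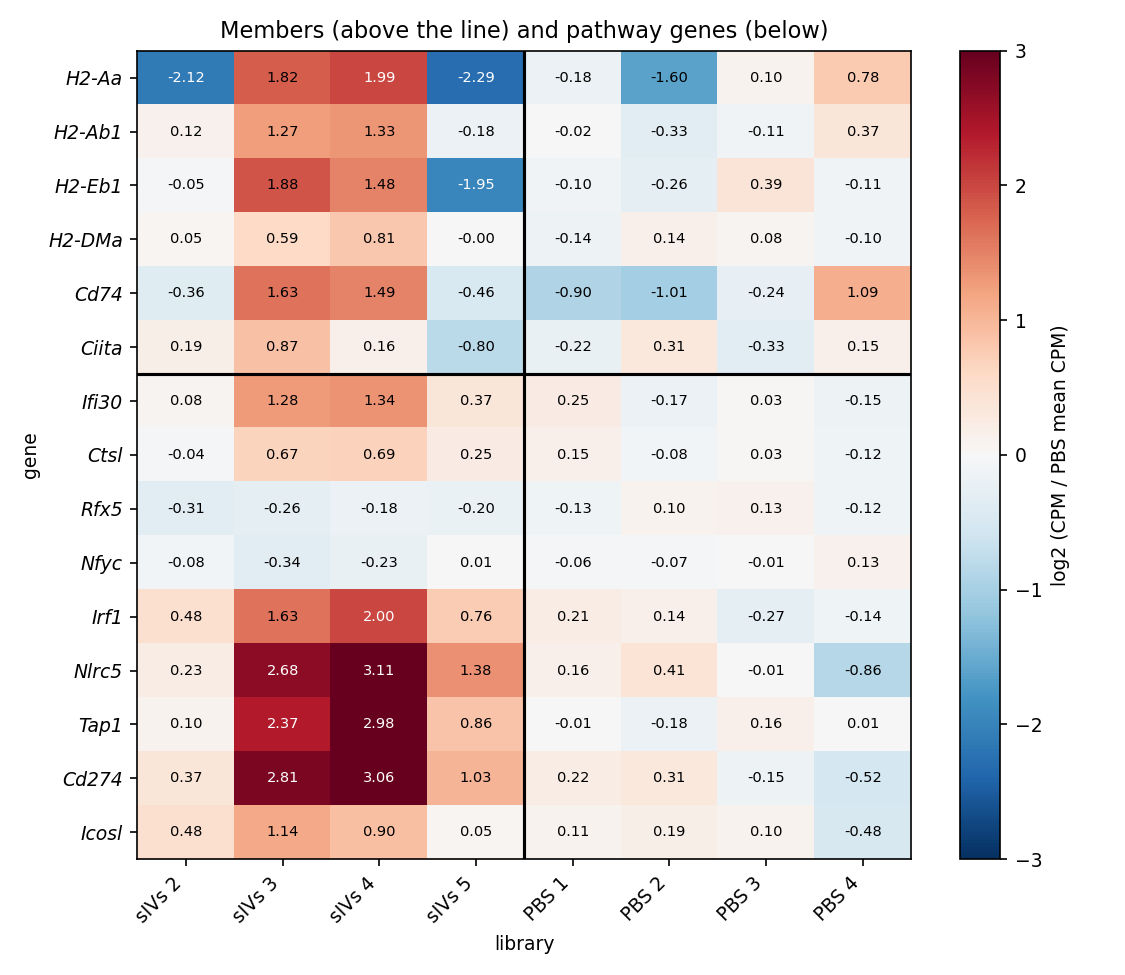
Heat map of log2 CPM relative to the PBS mean in each library (columns, sIVs left of the line, PBS right), for the 6 class II genes (above the line) and 9 named pathway genes (below), with red for higher and blue for lower. H2-Aa and H2-Eb1 are blue in sIVs 5 at -2.29 and -1.95, where Tap1 stands at 0.86 and Nlrc5 at 1.38. H2-Aa and H2-Eb1 rest there on 2 and 3 counts, and H2-Ab1 and Cd74 stand at -0.18 and -0.46.

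MHC class I presentation is the counterpart pathway, for peptides from the cytosol, and its coactivator Nlrc5 is a relative of Ciita. All 10 class I genes of the list were higher in both sIVs 3 and 4 than in the other 6 libraries, against 19.9% of all genes, and 0 passed the edgeR test after adjustment. Their median log2 fold change was 1.18. Nlrc5 stood at 6.96, 38, 51.2 and 15.4 CPM in sIVs libraries 2 to 5, against 6.63, 7.89, 5.9 and 3.27 CPM in PBS libraries 1 to 4 (log2 fold change 2.23 ± 0.55 SE, edgeR adjusted p = 0.168). Tap1, a peptide transporter subunit, stood at 9.31, 44.9, 68.7 and 15.8 CPM in sIVs libraries, against 7.70 to 9.72 CPM in PBS (edgeR adjusted p = 0.18). Nlrc5 and Tap1 passed in DESeq2 (adjusted p = 0.0231 and 0.0411) and, in edgeR, without sIVs 2 (adjusted p = 0.0111 and 0.0141). Without sIVs 3 and 4 their log2 fold changes were 0.91 and 0.53 (edgeR adjusted p = 0.273 and 0.284). In sIVs 5 every class I gene of the list but H2-K1 and B2m was above every PBS library. H2-K1 and B2m lay inside the PBS range, at 102 and 92.1 CPM. In the same library H2-Aa, H2-Eb1 and Ciita were below every PBS library, at 2, 3 and 21 counts. H2-Ab1, H2-DMa and Cd74 lay inside the PBS range there. Whether class I and class II differed in response was not tested.

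The pathways are interleaved on chromosome 17. The stretch from H2-DMa to H2-Eb2 (chromosome 17, 34135182 to 34340229) holds 16 genes, 8 of which were tested, and Psmb9, Tap1, Psmb8 and Tap2 lie in it between H2-DMb1 and H2-Ob. These 4 class I processing genes had log2 fold changes of 1.66 ± 0.55, 2.00 ± 0.54, 1.62 ± 0.48 and 1.14 ± 0.36 (SE). The class II genes around them, H2-DMa, H2-DMb1, H2-Ab1 and H2-Eb1, had 0.41 ± 0.21, 0.73 ± 0.40, 0.79 ± 0.36 and 0.95 ± 0.62 (SE). None of the 8 passed the edgeR test after adjustment over all 8 libraries.

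**Figure D4:**
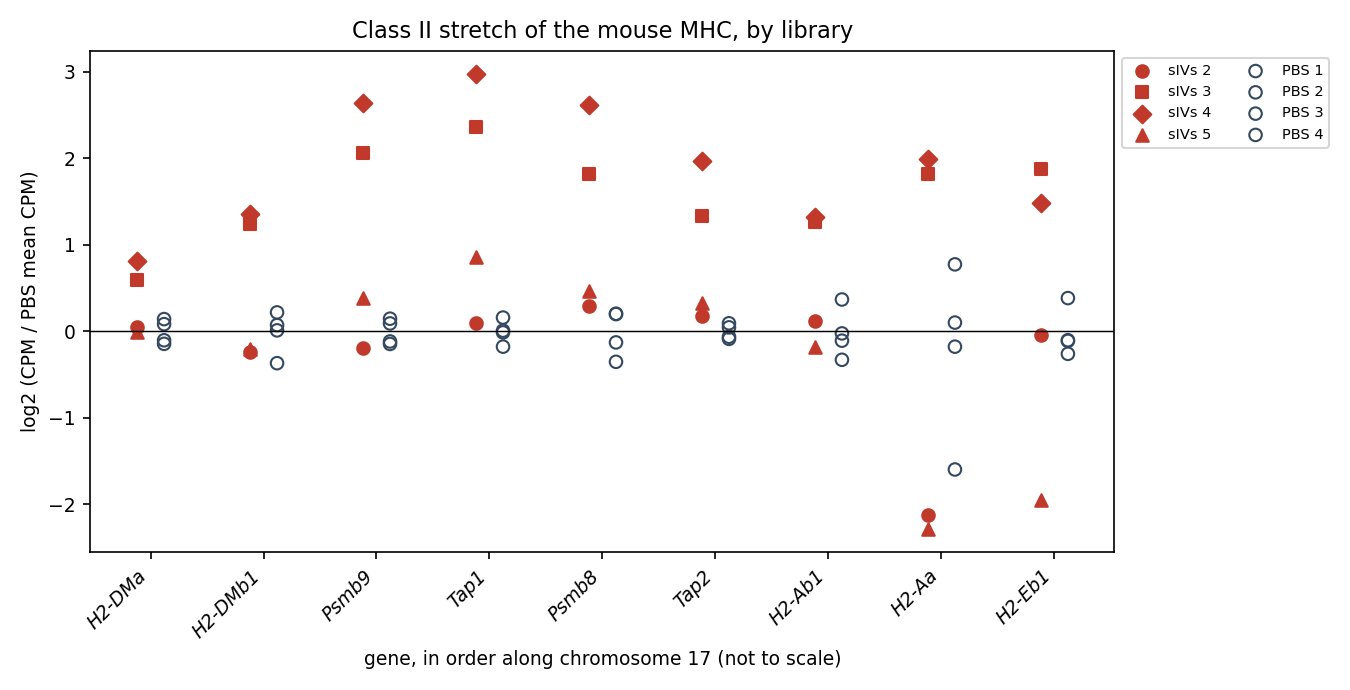
Log2 CPM relative to the PBS mean (vertical axis) for genes in order along the class II stretch of chromosome 17, tested genes plus H2-Aa, with filled red symbols for sIVs, 1 shape per library, and open circles for PBS. In sIVs 4 the value peaks at Tap1, 2.98, with H2-DMa at 0.81 and H2-Eb1 at 1.48 at the ends of the stretch. H2-Aa, beside H2-Eb1, stands at 1.99 in that library, near Tap2 at 1.97.

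The costimulation list holds genes whose products activate T cells beside class II, but also the inhibitory Cd274. Its median log2 fold change was 0.78 over 4 tested members of 6 listed, with 0 passing in edgeR. Cd274, which encodes the inhibitory ligand PD-L1, stood at 4.49, 24.4, 29 and 7.1 CPM in sIVs libraries 2 to 5, against 4.06, 4.3, 3.12 and 2.42 CPM in PBS libraries 1 to 4 (log2 fold change 2.22 ± 0.56 SE, edgeR adjusted p = 0.17). Every sIVs library was above every PBS library, and Cd274 passed in DESeq2 (adjusted p = 0.0231) and in edgeR without sIVs 2 (adjusted p = 0.0136). Without sIVs 3 and 4 its log2 fold change was 0.73 (edgeR adjusted p = 0.277). Icosl had a log2 fold change of 0.70 ± 0.26 over all libraries (SE, edgeR adjusted p = 0.269). For the activating ligand genes, neither past the test, Cd86 had 42 and 67 counts in sIVs 3 and 4, against 7 to 20 in PBS, while Cd80 had 29 and 30 counts in sIVs 3 and 4, against 24 to 32 in PBS.

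Markers of cells that can carry class II were examined beside the members. Summed over 10 microglial markers, sIVs libraries 2 to 5 stood at 119, 243, 275 and 94.3 CPM, and PBS libraries 1 to 4 at 153, 139, 161 and 118 CPM. Of these, Csf1r, the receptor on which microglia depend for survival, stood at 43.9 ± 23.1 CPM in sIVs and 37.9 ± 6.24 CPM in PBS (SD, n = 4 each). Of the 10, 7 were higher in both sIVs 3 and 4 than elsewhere, against 19.9% of all genes tested. But P2ry12 and Siglech, markers of homeostatic microglia, were below every PBS library in all sIVs libraries, against 3.36% of genes. H2-Ab1 amounted to 1.91% to 2.07% of the summed microglial CPM in sIVs libraries and to 1.2% to 2.3% in PBS libraries. H2-Eb1 stood at 1.05% and 0.703% in sIVs 3 and 4, above the 0.416% to 0.562% of PBS, and at 0.564% and 0.19% in sIVs 2 and 5. H2-Aa amounted to 0.113% to 0.844% in sIVs and 0.139% to 0.847% in PBS, Cd74 to 1.18% to 2.3% in sIVs and 0.63% to 3.27% in PBS, and H2-DMa to 2.56% to 4.36% in sIVs and 2.44% to 3.28% in PBS. The ratio of Ciita to these markers ran from 0.884% to 2.09% in sIVs and 1.08% to 2.06% in PBS.

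**Figure D5:**
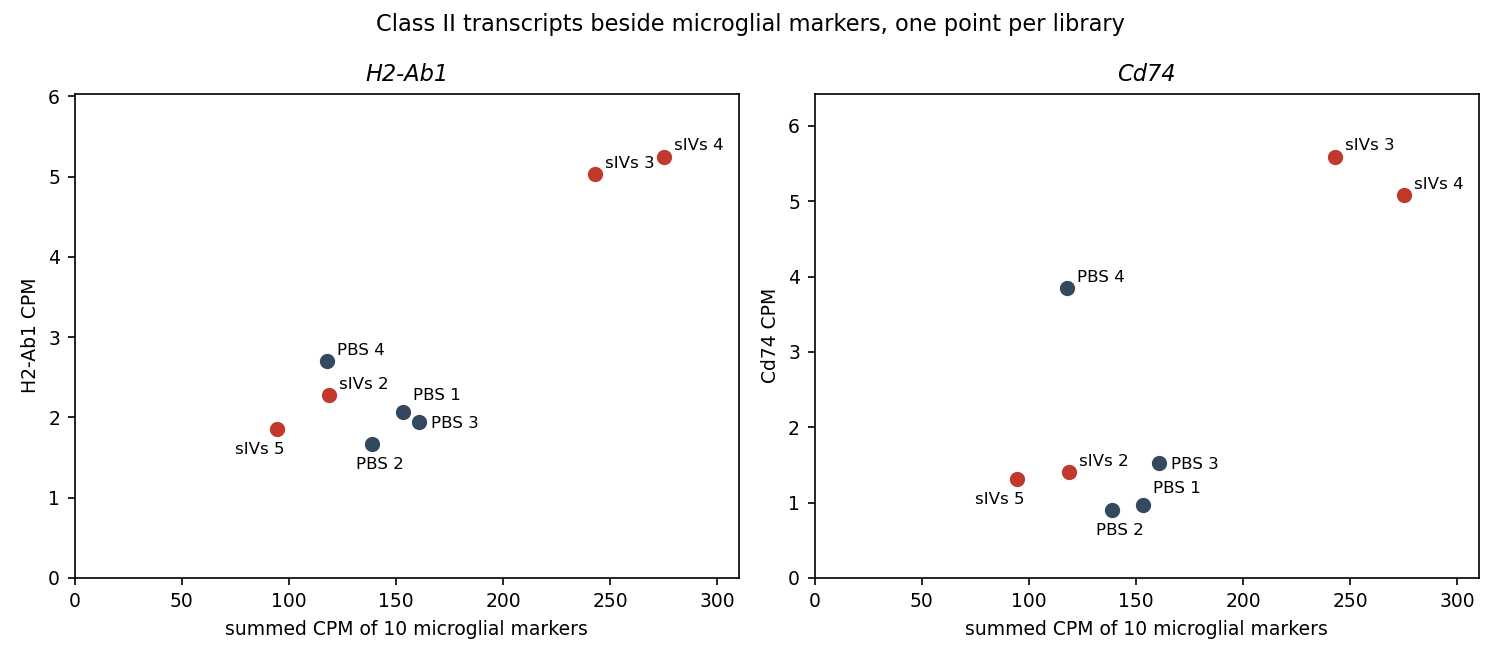
CPM of H2-Ab1 (left panel) and Cd74 (right panel) against the summed CPM of 10 microglial markers, with a point per library (sIVs red, PBS dark), all axes linear from 0. Libraries sIVs 3 and 4 lie at the upper right, at summed marker levels of 243 and 275 CPM, and PBS 4 stands out for Cd74, at 3.84 CPM.

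Monocyte markers were high in the same sIVs libraries, 3 and 4. The 4 genes Ly6c2, Ccr2, Plac8 and Chil3 summed to 0.201, 21.8, 23.5 and 2.33 CPM in sIVs libraries 2 to 5, against 0.208 to 0.385 CPM in PBS. Chil3 had 0, 178, 225 and 20 counts in sIVs libraries 2 to 5, against 0 counts in each PBS library, and Ccr2, a chemokine receptor of inflammatory monocytes, had 2, 120, 106 and 11 counts in sIVs, against 1 count in each PBS library. None of the 4 passed the filter on low counts. In sIVs 5 the sum and 3 of the 4 genes, all but Ly6c2, were above every PBS library, while no class II member was. The part of microglial and monocyte RNA in the class II result was not tested.

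Markers of dendritic cells, B cells, T cells and border macrophages were also followed. Of 9 dendritic cell markers 3 were tested, led by Zbtb46 and Flt3 at 9.35 ± 0.484 and 2.82 ± 0.131 CPM in sIVs and 9.62 ± 0.868 and 3.76 ± 0.683 CPM in PBS (SD, n = 4 each). Itgax, the remaining one, stood at 0.937, 3.91, 3.04 and 0.537 CPM in sIVs libraries 2 to 5, against 1.04 to 1.93 CPM in PBS, so that sIVs 3 and 4 were highest (edgeR adjusted p = 0.648). Cd209a had 1 count and Ccr7 2 counts over all libraries. The list summed to 14.1, 17.1, 16.8 and 14 CPM in sIVs libraries 2 to 5, against 14.9 to 16.7 CPM in PBS. B cell markers, led by Pax5 and Cd22, summed to 2.48, 3.79, 4.2 and 1.79 CPM in sIVs libraries 2 to 5, against 1.78 to 2.77 CPM in PBS. Cd22 had 29 and 32 counts in sIVs 3 and 4, against 3 to 11 in PBS. Cd79b had 11 and 14 counts there, against at most 2 in PBS. Pax5 had 11 and 17 counts there, against 14 to 25 in PBS, and Ms4a1 was at 0 in all libraries. T cell markers, led by Lck and Cd8a, summed to 2.14, 4.54, 4.09 and 2.27 CPM in sIVs libraries 2 to 5, against 1.74 to 3.4 CPM in PBS. Lck had 44 counts in each of sIVs 3 and 4, against 14 to 20 in PBS. Cd8a had 18 and 15 counts there, against 9 to 25 in PBS. Border macrophage markers, led by Lyve1 and Mrc1, summed to 20.7 to 27.3 CPM in sIVs and 21.2 to 24.1 CPM in PBS. Mrc1 stood at 3.21, 3.54, 0.663 and 1.01 CPM in sIVs libraries 2 to 5, against 2.13 to 3.15 CPM in PBS, with sIVs 2 and 3 above and sIVs 4 and 5 below every PBS library. The part of these cells was not tested.

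Among retinal cells, 8 rod markers, Gnat1 among them, summed to 35398, 7939, 7466 and 28358 CPM in sIVs libraries 2 to 5, against 31268 to 37429 CPM in PBS. They were lowest in sIVs 3 and 4. Müller glia markers, led by Glul and Rlbp1, summed to 1664 CPM in sIVs 5 and 2496 to 3014 CPM in the other sIVs libraries, and to 2848 to 3674 CPM in PBS. Glul, the largest part of the sum, stood at 986 to 1640 CPM in sIVs and 1923 to 2719 CPM in PBS. Such a separation was found in 3.36% of genes. Of the 5 markers the other 4, Rlbp1, Slc1a3, Aqp4 and Gfap, were higher in both sIVs 3 and 4 than elsewhere, against 19.9% of genes. Endothelial markers, led by Cldn5 and Pecam1, summed to 52.6 to 71.1 CPM in sIVs and 47.2 to 62.8 CPM in PBS. Their part in the class II values was not tested.

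Genes whose profile was nearest to each member were found by the mean absolute difference of log2 CPM over the 8 libraries, centred on the PBS mean, among 14165 protein-coding genes averaging 1 CPM or more in either group (14166 for H2-Aa). For H2-Ab1 these were Kitl, Rcn3 and Id2, at 0.12, 0.14 and 0.14, and for H2-DMa Il3ra, Amotl1 and Nav3, at 0.05, 0.06 and 0.06. For H2-Eb1 they were Tent5c, Syk and Cenpf, at 0.17, 0.20 and 0.24, and for Cd74 Hic1, Spdl1 and Fyb, at 0.37, 0.38 and 0.38. For H2-Aa they were Metrn, H2-Eb1 and Dab2, at 0.46, 0.47 and 0.48, so a class II gene was among the nearest only there. For Ciita they were 4930523C07Rik, Fbxo16 and Hist1h3d, at 0.12, 0.16 and 0.16. Among pairs of members, H2-Ab1 and H2-DMa were closest, at 0.32, and H2-Aa and Ciita farthest apart, at 0.93. Distances of sparse genes include counting noise.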

How the data were processed

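RNA sequencing counts and FPKM of 8 rd10 retina libraries were analysed. TRIzol extraction, poly(A) selection and dUTP-marked libraries read as pairs are stated per the labels' protocols. The submitters' processing notes name mm10. Aligner, counter and strand setting: not given in the sources used here. Counts as deposited are whole numbers with no normalization. The deposited FPKM equal counts divided by gene length and by library total, times a constant per library of 0.93 to 1.03, whose origin is not stated.

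The edgeR package (4.0.16, R 4.3.3) gave the tests on counts (filterByExpr by group, TMM, glmQLFit, group as the only term, Benjamini-Hochberg over all 17725 genes kept, threshold 0.05), checked on simulated counts. SE came from the F statistic. Alternatives used DESeq2 1.42.0, limma 3.58.1 (voom, log2(FPKM + 0.1) and log2(FPKM + 1)), other scalings, filters, blocks and left-out libraries. Leaving out sIVs 3 and 4 was added later.

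Members and gene lists were chosen with earlier results of these data known. Named genes were all members, the 2 of smallest p in each of 5 pathway lists, the 2 most abundant of each of 9 marker lists, and the 3 nearest profiles of each member, for which log2 CPM had a prior count of 2. Others were named after their values were seen. A few genes chosen by this rule are left unreported. March1 and March8, given as dates in the tables, were matched by identifier. Likeness is a description, with no test.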

Additional observations from a re-analysis of the deposited data

Results flagged for a closer look

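Of 32 groups of 4 libraries checked, the 6 members and 10 pathway genes in each treatment, 1 had a library far from the other 3. Icosl, a costimulatory ligand gene, stood at 2.13 CPM in PBS library 4, while the other PBS libraries lay between 3.19 and 3.4 CPM. Chance alone gives such a gap in about 1 of 20 groups.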

How the results depend on the processing

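No member passed the threshold in the main test, so the limits concern directions. Without sIVs libraries 3 and 4, left out with earlier results known, the log2 values turned to -0.023 (H2-Ab1), -0.73 (H2-Eb1), -0.40 (Cd74), -0.24 (Ciita) and -2.20 (H2-Aa); 2 genes were then higher and 1 lower past the threshold. H2-DMa kept its sign under all 20 alternatives, but only at 0.023 without sIVs 3 and 4 (edgeR adjusted p = 0.976). With single libraries left out, Ciita ran from -0.088 (without sIVs 3) to 0.44, H2-Ab1 from 0.55 to 1.00, H2-Eb1 from 0.45 to 1.32, H2-DMa from 0.24 to 0.52, Cd74 from 0.55 to 1.57 and H2-Aa from 0.40 to 1.38. Genes past the threshold then ran from 0 to 870 higher and 0 to 461 lower, the highest without sIVs 2. Of 37 pathway genes tested, 7 had every sIVs library above every PBS library and 1 below, against 4.42% and 3.36% of all genes; with single libraries left out these ran from 7 to 15 and 1 to 2, and scaled by library totals 0 were lower.

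The voom fit with sample quality weights called 2484 genes higher and 2489 lower, among them H2-Ab1 at 1.17, H2-DMa at 0.58 and Cd74 at 1.71 (adjusted p = 0.00753, 0.0217 and 0.015); H2-Eb1 and Ciita did not pass (adjusted p = 0.0694 and 0.165). DESeq2 called 465 higher and 106 lower and edgeR with no filter 145 and 7, none a member (with no filter, Irf1, Nlrc5 and Cd274 passed), though DESeq2 gave H2-Eb1 no adjusted p. The cause of these differences was not tested. With a replicate block by biosample number, H2-Ab1 stood at 0.69 and Cd74 at 0.86, by title number over 6 libraries at 0.94 and 0.97, and 0 genes passed. Same-numbered libraries correlated at -0.07 to 0.10 in their deviations from group means, so the numbers were not read as pairs. Of the 18 nearest genes named, 12 were shared on log2(FPKM + 0.1) and 1 by correlation of profiles. Low counts, down to 2 for H2-Aa, limit the precision.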
